A study of Mus musculus with 8 samples.

Results

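Interferon-stimulated genes were followed in mesenchymal progenitors, the stromal cells that lie between the fibres of skeletal muscle, from rest to day 10 after injury. The 41 genes were chosen by symbol from well known targets of interferon signalling, and all 41 stood in the deposited table of 23846 rows, each on 1 row. RNA sequencing measured their abundance as FPKM, the fragments per kilobase of transcript, scaled to 1000000 mapped fragments. Every library came from C57BL/6J mice of the genotype Hic1CreERT2/CreERT2;Rosa26LSLtdTomato/+, aged 8 weeks when they received 2.5 mg tamoxifen a day for 5 days, with a washout of 10 days after it. Tamoxifen switches on the Cre made from the Hic1 locus, which opens the tdTomato reporter, so red cells are those that expressed Hic1 at that time and their descendants. Both Hic1 alleles carried the insertion in all 8 libraries, and none of the 8 came from mice without Cre or without tamoxifen. Red cells were sorted from whole hindlimb muscle in the quiescent state and on days 1, 2, 3, 4, 5, 7 and 10 after injury with notexin, a toxin from snake venom that breaks down the muscle fibre membrane. Each time point was 1 library, whether mice were pooled for it is not stated, and no uninjured library of the later days was used here. The spread between animals is therefore unknown, and no p-value is given.

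Interferons are secreted proteins that warn cells of infection or damage. Type I interferons and interferon-gamma bind separate receptors, which use JAK kinases to activate STAT transcription factors. The type I complex, which includes IRF9, binds the interferon-stimulated response element (ISRE), and interferon-gamma acts through the gamma-activated site (GAS). The target genes encode sensors of foreign nucleic acid, proteins that block viral growth, GTPases that attack the vacuoles of intracellular microbes, and regulators that sustain or shut off the response. Such genes can also be held on at a low level without infection, through weak constant signalling or the release of the cells' own DNA and RNA.

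The depth behind the values was estimated from the steps of low FPKM values, since the table gives no totals. It came to 18900000 fragments for the quiescent library, 10700000 for days 2 and 3, and between 12100000 and 28400000 for the other days. For Isg15 that meant about 157 fragments in the quiescent library and 1664.1 at day 3, so the log2 ratio of these counts had an error of 0.12. Ifi44 and Oas3 rested on about 4 fragments in quiescent (3.98 and 3.89), and the log2 ratios of their counts carried errors of 0.73 and 0.79 at day 3. The differences used below add 1 FPKM before the log, so their errors are not the ones given here. These errors cover counting only. At day 1, 5 of 10 markers of the sorted cells, Hic1 and Pdgfrb among them, were 2-fold lower than in quiescent (12.5% of all rows). Pdgfra and Ly6a were at their highest at day 1 (152.8 and 1682.3 FPKM). A lower value in bulk RNA can mean fewer cells of a type or less RNA per cell, and these cannot be told apart here.

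The promoters of these genes were searched for the ISRE core (GAAA, any 2 bases, GAAA) and the GAS core (TTC, any 3 bases, GAA), on both strands. RefSeq windows (GRCm38.p6) from 250 bases before to 50 bases after the start site were found for 32 of the 41 members. The ISRE core stood in 18 of the 32 (56.2%), against 3.99% of the 27025 genes with such a window. The GAS core stood in 12 of the 32 (37.5%), against 9.55% of all genes. Of the 21 members with a window that were 2-fold higher at day 3 than in quiescent, 15 held the ISRE core (71.4%) and 6 the GAS core (28.6%). Among the 11 other members the counts were 3 (27.3%) and 6 (54.5%). These 11 include Irf8 and Oas3, which were under 5 FPKM and so not compared. Irf8 held a GAS core and had 6.6 times its quiescent FPKM at day 3, and Oas3 held an ISRE core and had 10.5 times. The cores and the profiles did not go together throughout. Irf7, Oasl1, Oasl2, Ifi47, Ifi44 and Xaf1 were 2-fold higher at day 3 and held neither core, and Stat2, Gbp2 and Oas3 held an ISRE core and were not called higher. Matches to both cores can share bases, as in Bst2, and a match describes letters, not a bound site.

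The 160 bases before the start site are printed below for 7 members chosen to show the range of arrangements, with every ISRE or GAS core match in capitals. Isg15, Ifit1 and Ifit3 were among the members that changed most, and Igtp stands for the immunity-related GTPases. Rsad2 and Cmpk2 are neighbours that behaved differently, and Irf1 was the member that was 2-fold lower than in quiescent at most days.
Isg15: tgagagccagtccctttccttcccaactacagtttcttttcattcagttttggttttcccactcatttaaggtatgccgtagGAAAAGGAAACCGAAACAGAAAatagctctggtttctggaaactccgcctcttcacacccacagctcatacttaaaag
Ifit1: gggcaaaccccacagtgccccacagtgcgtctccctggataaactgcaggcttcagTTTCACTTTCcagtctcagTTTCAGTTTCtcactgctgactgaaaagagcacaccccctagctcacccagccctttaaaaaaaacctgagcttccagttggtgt
Ifit3: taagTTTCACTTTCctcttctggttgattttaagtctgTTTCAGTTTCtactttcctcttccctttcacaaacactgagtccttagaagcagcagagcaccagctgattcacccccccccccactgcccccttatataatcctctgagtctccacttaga
Igtp: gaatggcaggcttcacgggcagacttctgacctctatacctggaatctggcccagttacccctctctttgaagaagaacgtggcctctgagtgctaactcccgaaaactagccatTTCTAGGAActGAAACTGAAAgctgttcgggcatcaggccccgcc
Rsad2: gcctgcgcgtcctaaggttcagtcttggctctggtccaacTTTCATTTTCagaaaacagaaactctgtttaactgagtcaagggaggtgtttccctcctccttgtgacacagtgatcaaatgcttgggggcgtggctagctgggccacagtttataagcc
Cmpk2: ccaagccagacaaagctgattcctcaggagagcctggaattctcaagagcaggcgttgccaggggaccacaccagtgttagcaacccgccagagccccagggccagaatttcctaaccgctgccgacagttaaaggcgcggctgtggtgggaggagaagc
Irf1: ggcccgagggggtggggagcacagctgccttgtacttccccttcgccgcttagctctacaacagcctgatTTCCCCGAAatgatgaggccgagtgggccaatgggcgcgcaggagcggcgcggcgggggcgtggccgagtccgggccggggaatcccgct
The stretches lie at chr4:156200819-156200978 (Isg15, minus strand), chr19:34640729-34640888 (Ifit1, plus), chr19:34583369-34583528 (Ifit3, plus) and chr11:58199396-58199555 (Igtp, plus). Those of Rsad2 (minus), Cmpk2 (plus) and Irf1 (plus) lie at chr12:26456453-26456612, chr12:26469055-26469214 and chr11:53769854-53770013. Isg15 held 3 ISRE cores that run into each other, starting at positions -78, -72 and -66 from the start site. Ifit1 and Ifit3 each held a pair of cores in the same order, TTTCACTTTC and then TTTCAGTTTC. In Igtp a GAS core at -45 stood just before an ISRE core at -34, and Irgm2 had the same arrangement at -75 and -64. Rsad2 held 1 ISRE core at -120, Cmpk2 held no match to either core in this window, and Irf1 held a GAS core at -90 and no ISRE core.

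The first question was when the interferon-stimulated genes were raised after injury. A minority of them, 13 of 32 compared (22.5% of all rows), was 2-fold higher at day 1, few were at day 2, and most, 28 of 39 (15.7% of all rows), were at day 3. By day 10 none of 27 compared was. The median FPKM of the 41 members was 6.62 in the quiescent library, 10.5, 6.14 and 20.9 at days 1 to 3. At days 4, 5, 7 and 10 it was 12.2, 13.6, 10.4 and 7.29. Day 3 therefore stood above every other library, and day 2 and the quiescent library were the lowest.

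**Figure D1:**
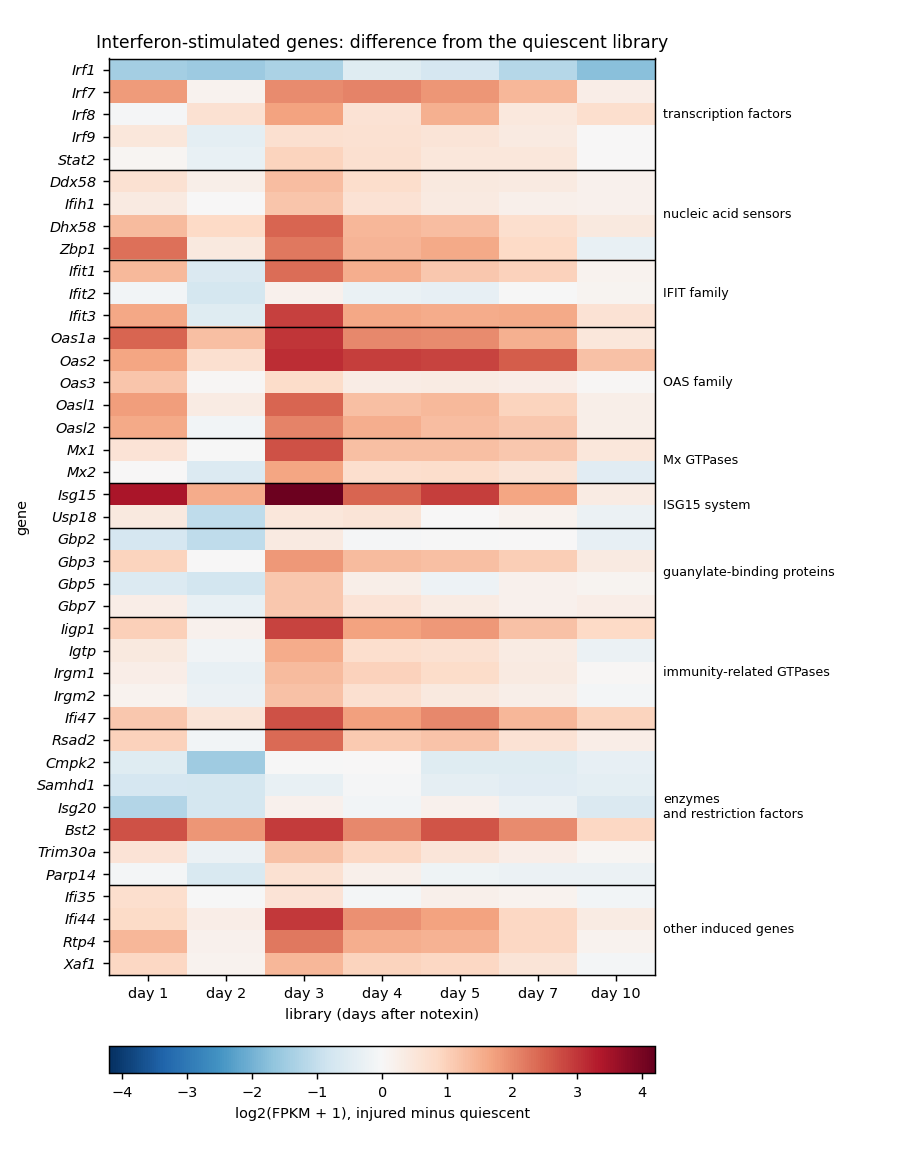
Each row is 1 of the 41 genes, grouped by role, and each column is 1 library at days 1 to 10 after notexin. Colour gives log2(FPKM + 1) in that library minus the quiescent library. The day 3 column is the reddest (median 1.56), the day 2 column is pale (median -0.11), and Irf1 is blue throughout (from -1.76 to -0.52).

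Differences between libraries were taken on log2(FPKM + 1), which understates changes of genes with low FPKM. Calls of 2-fold higher or lower needed a difference of 1 on this scale and a value of 5 FPKM or above in the library with more, and genes under 5 FPKM in both libraries were not compared. At day 1, 13 of 32 members compared were higher than in quiescent and 2 were lower, against 22.5% and 12.5% of all rows compared. The median difference of all 41 members was 0.65, and that of all rows compared was 0.26. Rescaling all libraries to the same FPKM sum changed the day 1 split to 7 higher and 4 lower, where 10.6% and 24.7% of all rows were called.

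At day 2 the members no longer stood above the rest of the transcriptome. Of 28 members compared 3 were higher (Oas1a, Isg15 and Bst2) and 4 were lower (Irf1, Usp18, Gbp2 and Cmpk2), against 23.7% and 10.9% of all rows. Their median difference was -0.11, where that of all rows compared was 0.29. On a common FPKM sum the split was 1 higher and 10 lower, where 9.55% and 25% of all rows were called.

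Day 3 held the largest number of raised members in these libraries. Of 39 members compared 28 were higher than in quiescent and 1, Irf1, was lower, against 15.7% and 8.26% of all rows. The median difference was 1.56 for the 41 members and 0.21 for all rows compared, and 17 members passed 4-fold (4.1% of all rows). Of the members that passed, Ifih1 (1.18), Gbp5 and Gbp7 (1.14 each) lay nearest to the threshold, and Stat2 (0.94) and Irf9 (0.67) lay just short of it.

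A 4-fold span was a difference of 2 on log2(FPKM + 1) between the highest and lowest library, with 5 FPKM or above in the highest. Of the 18 members with such a span, 16 were highest at day 3, as were 12.6% of all rows with it. Zbp1 was highest at day 1 (24.8% of all such rows) and Irf7 at day 4 (3.11%). None was highest in quiescent or on days 2, 5, 7 or 10, which held 14.8%, 21.5%, 6.22%, 6.93% and 9.98% of those rows.

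The raised level then faded in stages. At day 4, 14 of 33 members compared were higher and none lower, against 4.56% and 2.16% of all rows. At day 5 it was again 14 of 33 and none, against 8.42% and 4.61%. At day 7, 10 of 31 were higher and Irf1 was lower, against 4.01% and 2.45%. The medians of all 41 members at these days were 0.86, 0.78 and 0.47. By day 10 none of 27 members compared was 2-fold higher and Irf1 was lower, against 3.09% and 1.21% of all rows, with a median of 0.14.

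**Figure D2:**
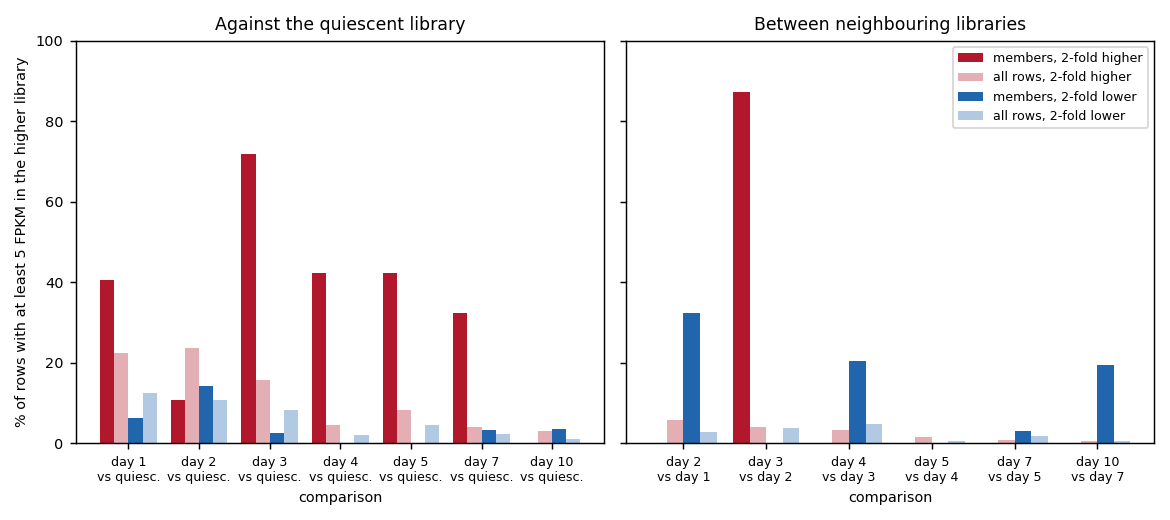
Bars give the share of rows called 2-fold higher (red) or lower (blue), in percent of the rows compared, for the members (dark) and all rows (pale). The members' bars are tallest at day 3 against quiescent (71.8% higher) and at the step from day 2 to day 3 (87.2% higher), and the step from day 1 to day 2 is a fall (32.3% lower).

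Neighbouring libraries showed the same course without the quiescent library. From day 1 to day 2, 10 of 31 members compared were 2-fold lower and none higher, against 2.95% and 5.86% of all rows, and 39 of the 41 had less FPKM. From day 2 to day 3, 34 of 39 were higher and none lower, against 4.19% and 3.87% of all rows, and all 41 had more FPKM. From day 3 to day 4, 8 of 39 were lower and none higher, against 4.89% and 3.44%. Between days 4 and 5 none of 34 members was called, where 1.53% of all rows were higher and 0.723% lower. From day 5 to day 7 only Isg15 of 32 was lower and none higher, against 1.89% and 0.84%. From day 7 to day 10, 6 of 31 were lower (Irf7, Zbp1, Oas1a, Oas2, Isg15 and Bst2) and none higher, against 0.605% and 0.723% of all rows.

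Day 2 was a low point for nearly all members. Of 39 members with at least 5 FPKM in any of days 1 to 3, 38 had less FPKM at day 2 than at both day 1 and day 3, as 17.5% of all rows did. A 2-fold dip on both sides was seen in 11 of the 39, against 0.263% of all rows, so 11 of the 23 such rows in the table were members. They were Irf7, Zbp1, Ifit1, Ifit3, Oas1a, Oasl1, Oasl2, Isg15, Usp18, Rsad2 and Rtp4. At day 4, 11 of 39 members were lower than at both day 3 and day 5, as 44.4% of all rows were, and none was 2-fold lower than both (0.642% of all rows). These patterns were looked for after the values had been seen. The low point rests on the 1 library of day 2.

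The transcription factors among the members did not share a course. Irf7 (chr7:141263183-141266424 in mm10, the build of all positions given here), which amplifies the type I response, was at 16.3 FPKM in quiescent, 58.7, 18.3 and 68.5 at days 1 to 3, and then at 71.9, 62.4, 44.6 and 20.1 at days 4, 5, 7 and 10. Its level thus stayed high for longer than most, with its highest value at day 4 (log2 difference 2.07). Irf1 (chr11:53770014-53778374), an early regulator that responds to interferon-gamma and to NF-kB, went the other way. It was highest in quiescent at 102.3, fell to 37.3, 35.0 and 40.5 at days 1 to 3, partly recovered to 71.3 and 63.1 at days 4 and 5, and fell again to 43.8 and 29.5 at days 7 and 10. All 7 injured libraries lay below the quiescent one, and the difference passed 2-fold at days 1, 2, 3, 7 and 10 (-1.43, -1.52, -1.32, -1.20 and -1.76).

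Stat2 and Irf9, partners in the complex that binds the ISRE, moved less. Stat2 was at 12.5 FPKM in quiescent, 13.3, 9.82 and 24.7 at days 1 to 3, and 20.4, 17.9, 17.6 and 12.4 from day 4 to day 10. Irf9 was at 13.3 in quiescent, 18.7, 9.86 and 21.7 at days 1 to 3, and 21.2, 19.6, 17.5 and 13.4 later. Both had their lowest level at day 2 and their highest at day 3, with no 2-fold difference from quiescent at any day. Irf8, a factor of myeloid cells, never reached 5 FPKM. It was at 0.668 in quiescent, 0.596, 1.62 and 4.41 at days 1 to 3, and 1.52, 3.66, 1.26 and 1.74 later. The order of days 3 to 5 was also that of the summed macrophage and monocyte markers given below. At day 1, however, Irf8 was below quiescent, while all 19 of those markers had more FPKM.

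Sensors of foreign nucleic acid were all raised at day 3, 4 of 4 being 2-fold higher (15.7% of all rows). Zbp1 (chr2:173206612-173218922), which senses nucleic acid in the Z form and can start cell death, was at 11.9 FPKM in quiescent, 63.1, 16.0 and 59.6 at days 1 to 3, then at 33.9, 37.8, 22.2 and 9.36. Its day 1 and day 3 levels were close to each other, with a fall of -1.91 and a rise of 1.83 around day 2. Dhx58, a helicase that tunes the RNA sensors, was at 2.17 in quiescent, 6.91, 4.67 and 16.0 at days 1 to 3, and 7.42, 6.72, 4.14 and 3.20 later. Ddx58, which encodes the RNA sensor RIG-I, was at 6.35 in quiescent, 10.5, 7.61 and 17.2 at days 1 to 3, and 11.2, 8.78, 8.54 and 7.29 later. Both helicases were highest at day 3 by a clear margin. Ifih1, which encodes the RNA sensor MDA5, rose to 10.9 at day 3 from 4.26.

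**Figure D3:**
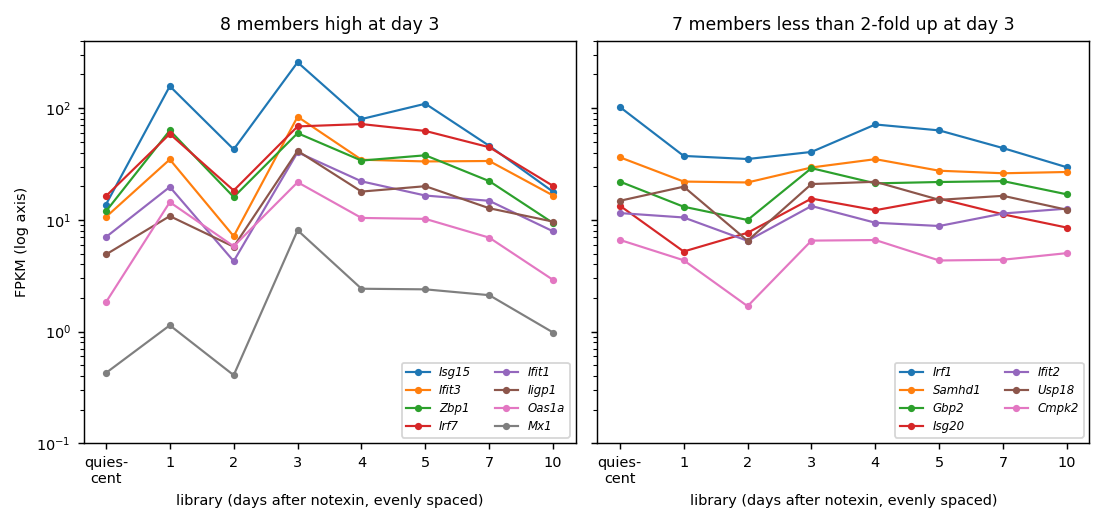
FPKM on a log axis in each of the 8 libraries, for 8 members that were 2-fold higher at day 3 (left) and 7 that were not (right), where points are single libraries, joined by lines. On the left the lines dip at day 2 and are highest or nearly so at day 3 (Isg15 256.6, Ifit3 83.6); on the right Irf1 starts at 102.3 and does not return, and the other 6 have their lowest or nearly lowest values at day 1 or day 2.

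The IFIT genes, whose products bind foreign RNA and block its translation, stand side by side on chromosome 19 and did not move alike. Ifit3 (34583529 to 34588982) was at 10.6 FPKM in quiescent, 34.7, 7.14 and 83.6 at days 1 to 3, then at 34.5, 33.3, 33.6 and 16.5. Ifit1 (34640889 to 34650009) was at 7.01 in quiescent, 19.7, 4.27 and 40.2 at days 1 to 3, and 22.1, 16.5, 14.8 and 7.89 later. Both fell below their quiescent level at day 2. On log2(FPKM + 1) both rose more from day 2 to day 3 (3.38 and 2.96) than any other member. As plain FPKM ratios for that step, Ifi44 (24.7) and Mx1 (19.8) rose more than Ifit3 (11.7). By the same measure Rsad2 (10.7) rose more than Ifit1 (9.4). At day 2 Ifi44, Mx1 and Rsad2 rested on about 8.88, 7.24 and 37.2 fragments, so these ratios are uncertain. Ifit2 was at 11.5 in quiescent, 10.5, 6.49 and 13.3 at days 1 to 3, and 9.42, 8.81, 11.4 and 12.6 later, so it kept within 2-fold of quiescent at every day. It lies 6994 bases from Ifit3.

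The OAS family includes enzymes that make a messenger that turns on RNA decay. Of its members, 4 of 4 compared were 2-fold higher at day 3 (15.7% of all rows), and Oas3 was too low to be compared. Oas2 (chr5:120730333-120749848) was at 0.409 FPKM in quiescent, 3.43, 1.23 and 11.1 at days 1 to 3, and 9.55, 9, 7.21 and 2.28 at days 4 to 10. Oas1a was at 1.83 in quiescent, 14.4, 5.80 and 21.7 at days 1 to 3, and 10.4, 10.2, 6.93 and 2.90 later. Oas2 stayed close to its day 3 level through day 5 (log2 difference -0.20 at day 4), while Oas1a lost 0.99 from day 3 to day 4. Oasl1 was at 0.804 in quiescent, 5.08, 1.28 and 8.71 at days 1 to 3, and 3.33, 3.67, 2.48 and 1.15 later. Oasl2 was raised at both days, with 31.6 and 44.6 against 9.81 in quiescent. Oas3 lies 3249 bases from Oas2 and was barely detected, with at most 1.40 at day 1 and 0.843 at day 3. Oas1a has a close copy, Oas1g, which showed the same course at 0.431 to 6.96, and how the authors shared reads between such copies is not given in the sources used here.

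The Mx genes encode dynamin-like GTPases that block viruses, and C57BL/6J mice are known to carry a defective Mx1. Mx1 was at 0.427 FPKM in quiescent, 1.14, 0.408 and 8.07 at days 1 to 3, and 2.42, 2.39, 2.12 and 0.982 later. Mx2 was at 2.65 in quiescent, 2.71, 1.45 and 10.5 at days 1 to 3, and 4.94, 5.05, 4.30 and 1.62 later. Both had a sharp maximum at day 3, with log2 differences from quiescent of 2.67 and 1.65. At day 1 Mx1 had 2.68 times its quiescent FPKM, at a level too low to be compared by the rule, and Mx2 1.02 times.

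Isg15 and Usp18 belong to the same system but behaved differently. ISG15 is a small ubiquitin-like protein joined to other proteins, and USP18 removes it and also damps the type I receptor. Isg15 (chr4:156199424-156200818) was at 13.7 FPKM in quiescent, 157, 42.7 and 256.6 at days 1 to 3, and 79.7, 109.3, 45.9 and 17.8 at days 4, 5, 7 and 10. It made the largest change of all members on log2(FPKM + 1), with a difference of 3.43 at day 1 and 4.13 at day 3. As plain FPKM ratios to quiescent at day 3, Ifi44 (97.5), Oas2 (27.2) and Mx1 (18.9) were above Isg15 (18.7). In quiescent these 3 genes rested on about 3.98, 28.7 and 13.4 fragments. Their ratios are therefore uncertain, and Mx1 and Isg15 cannot be ranked. Usp18 was at 14.8 in quiescent, 19.8, 6.5 and 20.9 at days 1 to 3, and 21.9, 15.1, 16.4 and 12.3 later. Its one 2-fold difference from quiescent was the low value at day 2 (-1.08), so the modifier rose strongly while its protease stayed within 2-fold at day 3 (0.47).

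GTPases of the guanylate-binding and immunity-related families, best known as targets of interferon-gamma, were raised mainly at day 3. At that day 3 of 4 guanylate-binding genes and 5 of 5 immunity-related GTPase genes were 2-fold higher, and at day 1 it was 0 of 2 compared and 2 of 5. Of all rows, 15.7% were higher at day 3 and 22.5% at day 1. Iigp1 (chr18:60376029-60392629) was at 4.90 FPKM in quiescent, 10.8, 5.75 and 41.4 at days 1 to 3, and 17.9, 20, 12.7 and 9.64 later. Ifi47 was at 2.58 in quiescent, 6.79, 4.18 and 21.6 at days 1 to 3, and 10.8, 13.6, 8.53 and 5.87 later. These 2 members had the largest rises of the group (2.84 and 2.66) and still stood 0.85 and 0.94 above quiescent at day 10. Igtp was at 8.70 in quiescent, 11.8, 7.81 and 27.6 at days 1 to 3, and 14.7, 14.0, 11.2 and 7.26 later. Irgm1 and Irgm2 reached 21.0 and 19.4 at day 3 from 7.83 and 7.66. These 3 genes were between 0.16 and 0.40 above quiescent at day 1.

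Among the guanylate-binding genes, which form a cluster on chromosome 3, Gbp3 had the largest difference from quiescent at day 3 (1.81). It was at 6.52 FPKM in quiescent, 13.5, 6.57 and 25.4 at days 1 to 3, and 17.7, 16.9, 14.3 and 8.81 later. Gbp5 was at 3.31 in quiescent, 1.88, 1.54 and 8.49 at days 1 to 3, and 4.17, 2.71, 3.93 and 3.72 later. Gbp7 was at 3.26 in quiescent, 4.16, 2.45 and 8.41 at days 1 to 3, and 5.41, 4.39, 3.84 and 4.22 later. Both were highest at day 3, and Gbp5 had the widest span of the family (1.90). Gbp2 had the highest resting level of the family and was lower before it was higher. It was at 22.0 in quiescent, 13.1, 9.97 and 29.0 at days 1 to 3, and 21.2, 21.8, 22.2 and 16.9 later. Its value at day 2 was 2-fold lower than in quiescent (-1.07) and that at day 3 was 0.39 above.

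Enzymes and restriction factors split into a raised set and a set that did not rise. Bst2 (chr8:71534262-71537437), the tetherin that holds budding viruses on the cell surface, was at 60.6 FPKM in quiescent, 394, 223.7 and 474.5 at days 1 to 3, and 247.4, 385.7, 241.9 and 110.7 later. It kept the highest FPKM of all members in every injured library and was 2-fold higher than quiescent from day 1 to day 7. Rsad2 (chr12:26442743-26456452), which encodes viperin, was at 1.14 in quiescent, 3.20, 0.956 and 10.2 at days 1 to 3, and 3.63, 3.95, 2.23 and 1.60 later. Cmpk2, a nucleotide kinase gene 12762 bases away that is commonly induced with Rsad2, was at 6.62 in quiescent, 4.35, 1.69 and 6.52 at days 1 to 3, and 6.6, 4.33, 4.40 and 5.04 later. The neighbours shared the low day 2, but Rsad2 at day 3 was 2.39 above quiescent and Cmpk2 was at -0.02. Samhd1, which breaks down nucleotides, was at 36.3 in quiescent, 22.0, 21.6 and 29.4 at days 1 to 3, and 34.9, 27.5, 26.1 and 26.8 later. Isg20, an RNA exonuclease gene, was at 13.4 in quiescent, 5.21, 7.66 and 15.5 at days 1 to 3, and 12.2, 15.5, 11.2 and 8.52 later. Samhd1 was never above quiescent, and Isg20 was 2-fold lower at day 1 (-1.22). Trim30a, of a family of ubiquitin ligases, was at 6.12 in quiescent, 9.70, 4.93 and 15.9 at days 1 to 3, and 11.9, 9.07, 7.6 and 6.54 later. Parp14, an ADP-ribosyltransferase gene, was at 6.22 in quiescent and 10.2 at day 3 (0.64).

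The remaining members were Rtp4, Xaf1, Ifi44 and Ifi35. Rtp4 was at 7.60 FPKM in quiescent, 21.4, 8.79 and 38.8 at days 1 to 3, and 23.9, 22.5, 14.6 and 8.47 later. Ifi44 was at 0.0763 in quiescent, 0.880, 0.301 and 7.44 at days 1 to 3, and 3.10, 2.44, 0.967 and 0.377 later. Xaf1, which favours cell death, was at 4.55 in quiescent, 9.19, 5.21 and 13.6 at days 1 to 3, and 9.47, 9.16, 7.1 and 4.22 later. These 3 genes were 2-fold higher at day 3. Ifi35 was at 27.7 in quiescent, 46.2, 27.2 and 41.2 at days 1 to 3, and 26.2, 32.1, 30.6 and 25.1 later. Its highest library was thus day 1, and it did not pass 2-fold from quiescent at any day.

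Other genes of the pathway were read from lists that were chosen with earlier results of these data known, so they are not an independent check. No interferon gene reached 1 FPKM in any library. The highest was Ifnb1, which encodes interferon-beta, listed at 0.001, the floor of the table, in quiescent and at 0.748 at day 1. Ifng, which encodes interferon-gamma, was at most 0.305, at day 10. The 17 interferon genes in the table summed to 0.0669 FPKM in quiescent, 0.832, 0.017 and 0.275 at days 1 to 3, and these sums rest on a few fragments. Polyadenylated RNA of sorted stromal cells does not show what other cells in the muscle made.

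Of 16 receptor and JAK-STAT genes, 15 reached 1 FPKM in at least 1 library, and Ifnlr1 was at the floor in every injured library. Most of those compared kept within 2-fold of quiescent. Ptpn2 did not, with 8.61 FPKM in quiescent and 31.4, 25 and 21.6 at days 1 to 3, 2-fold higher at each. Of 14 such genes compared at day 3, 3 were 2-fold higher than in quiescent and none lower, against 15.7% and 8.26% of all rows, a share close to that of all rows. Jak2, a kinase of the interferon-gamma receptor, was at 7.90 FPKM in quiescent, then 13.9, 23.7 and 24.2 at days 1 to 3. It was highest at day 3 as most members were, but did not dip at day 2. The type I receptor genes Ifnar1 (9.57 to 13.6) and Ifnar2 (41.9 to 62.4) and the interferon-gamma receptor genes Ifngr1 (79.8 to 123.8) and Ifngr2 (21.1 to 38.3) kept within 2-fold of quiescent at every day. Jak1 ranged from 41.2 to 64.1, and Tyk2 from 3.25 to 7.01 with its lowest value at day 1. Of the feedback inhibitors, Socs1 ranged from 19.9 to 43.5, and Socs3 was highest in quiescent with 373.8 and lowest at day 10 with 159.6, which was 2-fold lower.

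Among sensors and adaptors, 3 of 11 compared were 2-fold higher at day 3 and none lower, against the same 15.7% and 8.26% of all rows. Tmem173, which encodes the DNA-sensing adaptor STING, was at 10.9 FPKM in quiescent, 17.4, 22.8 and 35.6 at days 1 to 3, and between 17.6 and 23.3 later. Mb21d1, which encodes the DNA sensor cGAS, was at 0.626 in quiescent and at most 2.14, at day 1. Mavs, the adaptor of the RNA sensors, was highest in quiescent with 12 and lowest at day 3 with 6.55.

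A list of 58 other interferon-stimulated genes, which shares 1 gene with the receptor and JAK-STAT list, was raised mainly at day 3. Of 47 compared at day 3, 22 were 2-fold higher and none lower (15.7% and 8.26% of all rows), with a median difference of 0.79 over the 54 that reached 1 FPKM. At day 1, 11 of 39 were higher and 2 lower, near the 22.5% and 12.5% of all rows. At day 2, 5 of 38 were higher and 1 lower, below the 23.7% and 10.9% of all rows. The largest rises at day 3 were those of Oas1g (0.431 to 6.96 FPKM), Mlkl (3.77 to 24.1), Phf11d (5.08 to 26.4), Lgals3bp (52.9 to 229.9) and Epsti1 (0.216 to 4.07). Mlkl, which carries out necroptotic cell death, was highest at day 1 with 31.5 and stayed at 21.4 at day 2, unlike most members. Phf11d dipped to 7.59 at day 2 from 17.5 at day 1.

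Transcripts of macrophages, which respond strongly to interferon, changed in the same libraries. The 19 macrophage and monocyte markers in the table summed to 121 FPKM in quiescent, to 289.8, 364.9 and 1049.7 at days 1 to 3, and to 264, 673, 159.4 and 156.8 at days 4, 5, 7 and 10. Ly6c2 alone gave 84.9 of the 121 FPKM in quiescent and was at 93.3 at day 3. The ratio of the sums at days 3 and quiescent therefore understates the rise of the other markers. None of the 19 was at 0 or the floor in any library, and 12 of 14 compared were 2-fold higher at day 3 (15.7% of all rows). The marker sum and the members were both highest at day 3. From day 1 to day 2, 11 of 19 markers had more FPKM and 8 had less. Lyz2 made the largest change (55.2 to 128.6), and the other markers summed to 234.6 and 236.2. Among these others Ly6c2 (106.9 to 88.7) and Cd14 (21.2 to 10.2) fell, while Ctss (16.2 to 28.1) and C1qb (8.09 to 14.5) rose. Of the 41 members, 39 went down at that step. From day 4 to day 5 all 19 markers had more FPKM, and 28 of the 41 members went down, with a median difference of -0.09. Irf8 and Bst2 were among the 13 members that went up at that step (0.89 and 0.64). How much of the members' level came from macrophages was not tested.

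**Figure D4:**
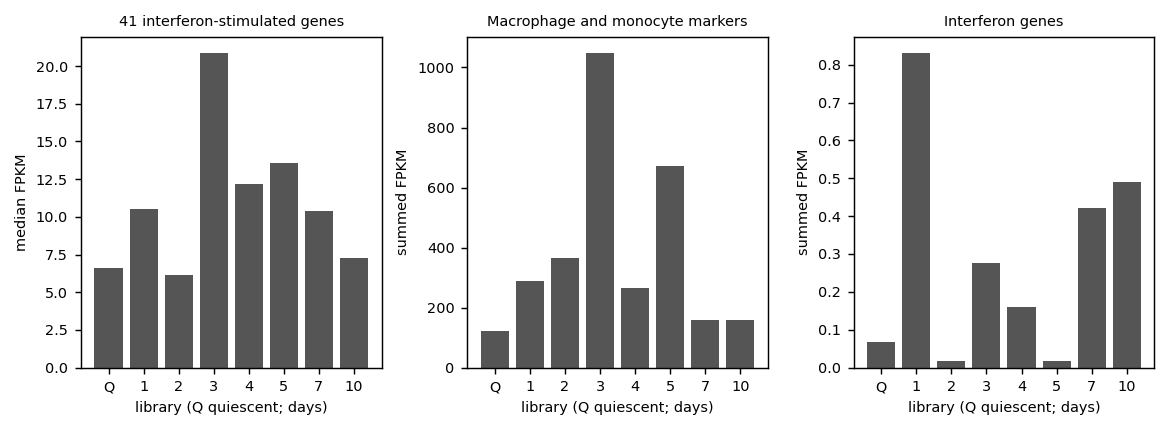
The left panel gives the median FPKM of the 41 members in each library, the middle one the summed FPKM of 19 macrophage and monocyte markers, and the right one the summed FPKM of 17 interferon genes, each bar being 1 library (Q, quiescent). Members and macrophage markers are both highest at day 3 (20.9 and 1049.7), the markers have a second high bar at day 5 (673) while the members' median changes little there (12.2 at day 4, 13.6 at day 5), and interferon genes stay below 1 FPKM in sum.

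Markers of other leukocytes were read in the same way. T and NK cell markers summed to at most 4.07 FPKM, at day 5, and dendritic cell markers to at most 6.54, at day 5, with 10 of 11 T and NK cell markers at 0 or the floor in quiescent. Neutrophil markers summed to 46.7 in quiescent and 46.9 at day 1, to 23.6, 8.26 and 2.28 at days 2 to 4, and to 90.3, 16.7 and 67.4 at days 5, 7 and 10. They were thus low at day 3, where the members were highest, and highest at day 5. Endothelial markers summed to 17.3 in quiescent and 2.19 to 13 after injury, and muscle fibre markers to between 10.1 and 118.9. Progenitor markers summed to 6565.2 at day 1 and 7809.2 at day 2, against 12994.9 in quiescent and 14075.5 at day 3. The similar sums of quiescent and day 3 hide opposite changes. At day 3, 2 of 10 markers were 2-fold higher, Col1a1 (1174.1 to 3205.3) and Col3a1 (2121.2 to 5138.9). Pi16 was 2-fold lower (2361.9 to 299.4), and Dcn fell just short of it (4577 to 2324.1). Of all rows, 15.7% were higher and 8.26% lower.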

How the data were processed

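FPKM values for 23846 rows, each with a symbol and a locus, were deposited by the authors. The tools named per the submitters' processing notes are Cufflinks, TopHat2, Bowtie2 and bcl2fastq, with the build mm10. The sources used here do not give versions, annotation, strand use or how reads with several matches were shared, so members with close copies are less certain. Locus starts were raised by 1 to count from 1. FPKM values depend on the total of mapped fragments, so abundant genes shift all others.

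Each sample was grouped by its time label. Symbols on more than 1 row (253) were read at the row with the highest FPKM. No member was among them. Calls needed a difference of 1 on log2(FPKM + 1) and 5 FPKM in the higher library. Depth came from 2088 genes with 1 transcript over 1500 bases in GENCODE M21: FPKM times length less 150 bases falls in steps of 1 fragment, and 75.2% to 81.1% of values worth up to 5 fragments were whole to within 0.15, against 30% by chance. Fragments behind a member used the median length of its coding transcripts. Calls and depth were tested on simulated data. Genes named with all values were, in each role group, the 3 with the widest span and at least 5 FPKM, and those that were lower or highest elsewhere than day 3. Ifih1, Irf8, Oas3, Oasl2 and others were added after their values were seen. A gene of the pathway lists is not reported here. The members and lists were chosen with earlier results of these data known. Promoter windows were searched with Python 3.11.15 and pandas 2.3.3.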

Additional observations from a re-analysis of the deposited data

How the results depend on the processing

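No paired analysis was possible because each time point has 1 library. For the same reason no library could be left out within a group, and the counts rest on single libraries. The counts of members higher than in quiescent, of those that moved at each step, and of those highest at day 3 (16 of 18 that spanned 4-fold, where 12.6% of all such rows were) were recomputed under each alternative. Median-ratio scaling moved none of them by over 1.5 times, and no median difference from quiescent changed sign, except that of day 10 (0.14), which was -0.00 with a minimum of 10 FPKM. On a common FPKM sum, 7 members were higher at day 1 and 1 at day 2, 3 were lower at day 4 than at day 3, and 2 at day 10 than at day 7. With a 3-fold threshold, 8, 1, 8, 8 and 3 members were higher at days 1, 2, 4, 5 and 7. At day 3 it was 19 members, where 6.7% of all rows were called. The share of all rows at this threshold was not computed for the other days or steps. At the same threshold 6 were lower at day 2 than at day 1, 21 higher at day 3 than at day 2, 1 lower at day 4 than at day 3, and 0 lower at day 7 than at day 5 and at day 10 than at day 7. With a pseudocount of 0.1, or with no minimum FPKM, 1 member was higher at day 10, and with no minimum 2 were lower at day 7 than at day 5. With a minimum of 10 FPKM, 5 were lower at day 4 than at day 3. Against day 10 in place of quiescent, a setting added after seeing the data, 6 members were higher at day 7. The 28 members higher at day 3 were all kept with the pseudocount of 0.1 and under median-ratio scaling, and 21 of them on a common sum, where Ddx58, Gbp5, Gbp7, Ifih1, Irgm1, Irgm2 and Trim30a were lost. The causes of these moves were not tested. Members under 5 FPKM, such as Oas3 and Irf8, are limited by depth.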

Other observations

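Beside the 11 members, 12 other rows of the table were 2-fold lower at day 2 than at both day 1 and day 3. They were listed after the pattern had been seen. The 3 Phf11 genes, which lie side by side on chromosome 14 and stand on the list of other interferon-stimulated genes, were among them. Phf11d was at 17.5, 7.59 and 26.4 FPKM at days 1, 2 and 3, Phf11b at 4.46, 1.38 and 11.1, and Phf11a at 3.73, 0.837 and 6.11. Oas1g, of the same list, was at 4.02, 1.29 and 6.96. The row I830012O16Rik, named Ifit3b in RefSeq and a close relative of Ifit3 on chromosome 19, was at 9.14, 2.66 and 27.6. Trim30d, a neighbour of Trim30a on chromosome 7, was at 6.84, 2.18 and 9.48.

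The other 6 rows stand on none of the lists used. Serpine2, a protease inhibitor gene, was at 217.9, 80 and 172.6 FPKM at days 1, 2 and 3, and Dio2, which activates thyroid hormone, at 7.51, 1.91 and 5.76. Retnla was at 9.50, 0.972 and 4.70, and S100a3 at 5.03, 1.30 and 3.77. The rows Mir1906-1 and Snora34 span 80 and 118 bases, and both were at the floor of 0.001 at day 2.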
